A study of Homo sapiens with 12 samples.

Results

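The comparison described here set HCC70 cells kept with the BET inhibitor JQ1 against HCC70 cells kept with vehicle. Its members are the 6 arrays whose titles name HCC70 and either JQ1 or control, out of 12 arrays in the series, and the 14884 genes with a single annotated symbol, each read from its brightest transcript cluster. HCC70 is an established human breast cancer line of the triple-negative class. JQ1 was given at 500 nM to the cells behind 3 arrays and DMSO at 0.1% to those behind the 3 vehicle arrays, both for 72 hours. No genetic change was made in either group. The other 6 arrays held the triple-negative line MDA-MB-231 under the same agents, dose and time, 3 arrays per group. RNA was read on Human Gene 2.0 ST arrays, which probe the exons of each gene, and values are log2 signals. Whether replicate arrays stand for separate cultures is not stated in the labels, so the p-values cover the spread between these samples alone, which may be technical. Everything rests on a single line and a single time point.

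BET proteins read acetylated lysines on histones through paired bromodomains and pass the signal to the elongation kinase P-TEFb and to Mediator, which release paused RNA polymerase II. JQ1 fills the acetyl-lysine pocket and moves the proteins off chromatin. In breast epithelium, genes that depend on dense clusters of acetylated enhancers, among them lineage factors, secreted products and inflammatory genes, are known to be sensitive to such displacement, and genes that restrain P-TEFb are known to rise after it.

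Over the 14884 genes, Pearson's r was 0.990 to 0.995 between arrays given the same agent and 0.975 to 0.978 between a vehicle and a JQ1 array. The epithelial markers EPCAM (10.31 ± 0.13 SD, n = 3 vehicle arrays), KRT19, ESRP1 and GRHL2 were bright. The markers KRT8 and KRT14 were lower, at 7.15 and 6.45. The steroid receptor genes ESR1 and PGR lay at 5.09 and 3.93 in vehicle-treated cells. ERBB2 and CDH1 were not analysed here. Of the blood cell markers 5 were measured, and CD68 and CD14 were bright, at 9.31 and 8.52 in vehicle-treated cells. CD68, a lysosomal protein that epithelial cells also make, rose by 0.82 ± 0.074. CD14 fell by 0.38 ± 0.096, a call lost under some alternatives. Such changes are differences of log2 signal, JQ1 minus vehicle, with the SE from limma. CSF1R, LYZ and NKG7 did not pass, at 3.67 to 6.10 in vehicle-treated cells. Of 7 stromal, endothelial and adipocyte markers, the pericyte gene RGS5 fell by 0.42 ± 0.092 and 6 did not pass, among them DCN and LUM at 2.87 and 3.23.

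JQ1 changed the signal of many genes, more of them downward than upward. In limma with Benjamini-Hochberg adjustment, 3229 of 14884 genes were called at an adjusted p threshold of 0.05, which is 21.7% of the genes tested. Of these 1366 rose (9.18%) and 1863 fell (12.5%). Falls were larger than rises: 291 genes fell and 89 rose by at least 1 on the log2 scale, and 42 fell and 4 rose by at least 2. The median called rise was 0.47 and the median called fall -0.58, while the median over all genes was 0.0057. With each array centred on its median, falls made up 43.9% of the calls in place of 57.7%, so the split by direction depends on the scaling. The groups did not overlap for 99.3% of the called genes, against 37.4% of all genes. Calls were rare among dim genes. Below the lower quartile of vehicle levels 1.61% of genes rose and 1.51% fell, and above the upper quartile 18.1% rose and 23.7% fell. Where the lower of a gene's group means was under 4.81, the lower quartile for vehicle and for JQ1 arrays alike, its change is read as a lower bound and the gene is called dim below. A lower signal from a mixed population cannot tell fewer cells that make an RNA from less RNA per cell.

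**Figure D1:**
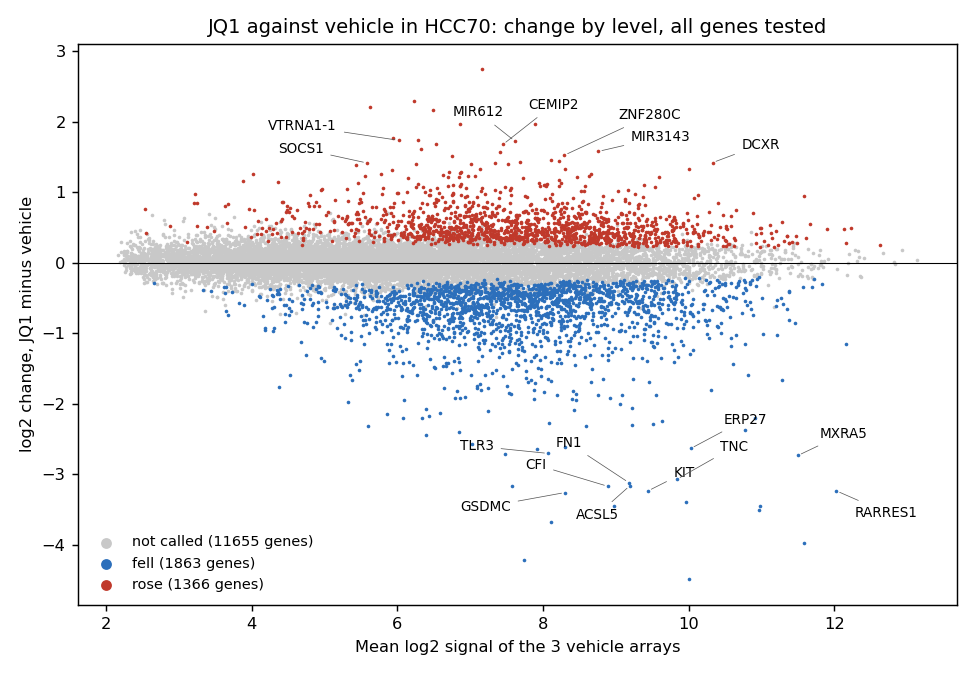
Each point is one of 14884 genes, with the mean log2 signal of the 3 vehicle arrays on the x axis and the log2 change (JQ1 minus vehicle) on the y axis, red for the 1366 genes that rose and blue for the 1863 that fell. Falls reached beyond -4 in genes of middle and high level, and rises stayed below 3.

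The genes with the largest rises after the leading 8 (TFPI2, AMIGO3, IQCN, PEG10, PCSK5, EPPK1, ZNF10 and CCN2) held surface and secretory enzymes, feedback inhibitors and small RNA genes. CEMIP2, a cell-surface protein that cleaves hyaluronan, read 7.41, 7.39 and 7.55 on the vehicle arrays and 9.27, 9.09 and 9.02 on the JQ1 arrays. The groups lay far apart, and the gene rose 3.20-fold (log2 change 1.68 ± 0.11 SE, limma adjusted p = 4.6e-07). TUFT1, tuftelin, read 8.12, 8.07 and 8.11 under vehicle and 9.53, 9.58 and 9.58 under JQ1, a rise of 2.75-fold (1.46 ± 0.073). GCH1, the first enzyme of tetrahydrobiopterin synthesis, had the 3 JQ1 arrays at 9.11, 9.10 and 9.11 against 7.64, 7.66 and 7.75, so its rise of 2.69-fold was many times the spread. SOCS1, an inhibitor of JAK kinases that cytokine signals induce, was at 5.84, 5.54 and 5.36 under vehicle and at 7.22, 6.93 and 6.83 under JQ1. Its groups were separate, with more spread than the genes before it, and it rose 2.67-fold (1.41 ± 0.14, limma adjusted p = 1.6e-05).

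Several metabolic enzymes were among the rises of this size. UXS1, which makes UDP-xylose for proteoglycan synthesis, rose by 1.40 ± 0.10. DCXR, a sugar and dicarbonyl reductase, read 10.19, 10.44 and 10.35 under vehicle and 11.70, 11.78 and 11.75 under JQ1, and rose 2.67-fold (1.42 ± 0.089). PNPLA2, the lipase that opens stored triglyceride, rose by 1.41 ± 0.079 in its brighter cluster and by 0.67 ± 0.11 in the other. The chloride intracellular channel family member CLIC3 rose by 1.57 ± 0.098, the membrane protein TMEM45B by 1.51 ± 0.13, the zinc finger protein ZNF280C by 1.52 ± 0.079, the microtubule regulator WDR47 by 1.42 ± 0.085 and the uncharacterised LOC90246 by 1.45 ± 0.11. The vault RNA gene VTRNA1-1, whose product sits in vault particles, rose by 1.74 ± 0.24, with JQ1 arrays at 8.26, 7.69 and 7.29 against 5.93, 6.19 and 5.92. Its JQ1 arrays were spread over nearly 1 log2 unit, and none of them reached down to the vehicle arrays.

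The falls that followed the leading 8 (CP, IFI44L, GLYATL2, CD180, CEACAM6, CTSS, IFITM1 and DMBT1) ran from 9.55-fold down to 5.27-fold and took in receptors, matrix proteins and immune genes. RARRES1, a retinoid-induced membrane protein, read 11.99, 12.07 and 12.02 under vehicle and 9.06, 8.80 and 8.52 under JQ1. Its groups stood 3 log2 units apart, and it fell 9.40-fold (log2 change -3.23 ± 0.18, limma adjusted p = 1.3e-07). KIT, the receptor tyrosine kinase for stem cell factor that marks luminal progenitors in breast, read 9.43, 9.48 and 9.41 under vehicle and 5.86, 6.76 and 6.0 under JQ1. The JQ1 arrays varied more than the vehicle arrays, and all of them lay far below, for a fall of 9.40-fold (-3.23 ± 0.20). GSDMC, a pore-forming gasdermin, was at 8.17, 8.36 and 8.38 under vehicle and 5.09, 5.17 and 4.88 under JQ1, a fall of 9.55-fold (-3.26 ± 0.10).

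Of the matrix proteins among these falls, FN1, fibronectin, read 9.18, 9.21 and 9.14 under vehicle and 6.02, 6.22 and 5.94 under JQ1, and fell 8.66-fold (-3.12 ± 0.091, limma adjusted p = 1.6e-09). TNC, tenascin-C, read 9.74, 9.90 and 9.87 and then 6.73, 6.68 and 6.90, and fell 8.38-fold. MXRA5, a secreted matrix-remodelling protein, read 11.52, 11.51 and 11.47 and then 9.02, 8.79 and 8.50, and fell 6.64-fold. In these genes no JQ1 array came within 2 log2 units of a vehicle array. Of 22 matrix metalloproteinase and TIMP genes 2 fell and 1 rose, so 13.6% were called against 21.7% of all genes. The membrane metalloproteinase MMP14 fell by 1.29 ± 0.088. Among the inhibitors TIMP1 fell by 0.43 ± 0.10 and TIMP3 rose by 0.40 ± 0.13, a rise whose call was lost under some alternatives. TIMP2 and TIMP4 were not called.

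The other falls of this rank were in the complement regulator CFI, the acyl-CoA synthetase ACSL5 (-3.16 ± 0.11), the double-stranded RNA receptor TLR3, the protease inhibitor A2ML1 (-2.64 ± 0.18), the endoplasmic reticulum protein ERP27 (-2.63 ± 0.13) and the immune adaptor FYB1 (-2.61 ± 0.16). ATP13A5 (-3.17 ± 0.22), GBP4 (-2.71 ± 0.29), IFIT3 (-2.56 ± 0.19), TGM5 (-2.45 ± 0.20) and TLR1 (-2.40 ± 0.15) ended dim, so their falls are lower bounds.

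**Figure D2:**
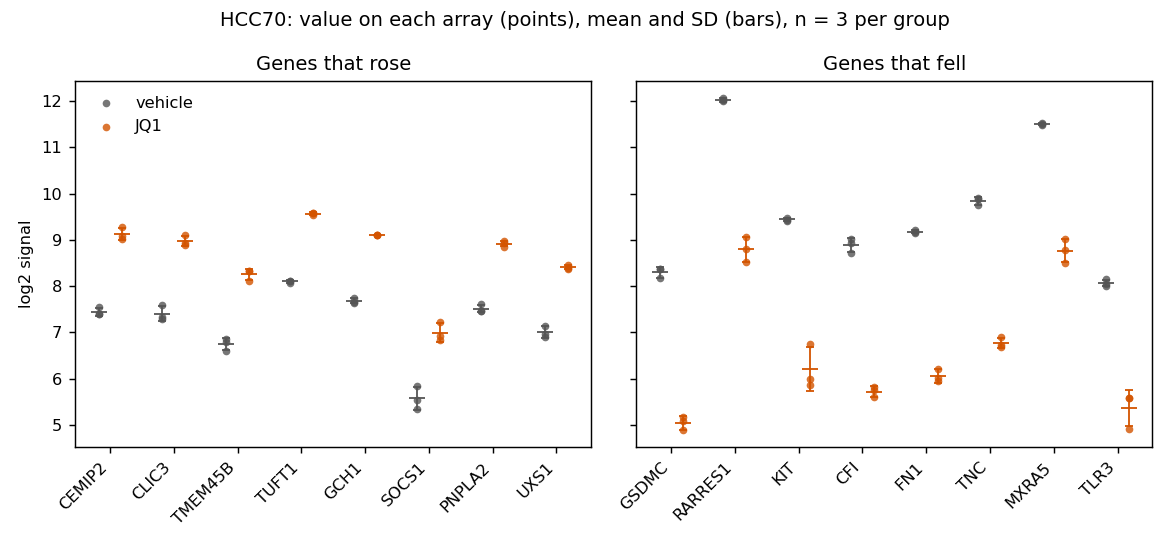
Points are the log2 signals of each array for 8 genes that rose and 8 that fell, with the mean and SD of 3 vehicle arrays (grey) and 3 JQ1 arrays (orange). In each of the 16 genes the JQ1 points lie wholly above or wholly below the vehicle points, which the naming rule required.

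Most antiviral genes fell. Of 28 measured antiviral effectors, genes that interferon induces and that block virus entry or replication, 20 fell, 1 rose and 7 were not called, with a median of -0.79 against 0.0057 over all genes. XAF1, a pro-apoptotic interferon target, read 8.41, 8.13 and 8.04 under vehicle and 6.35, 6.54 and 6.09 under JQ1, and fell by 1.87 ± 0.13 (limma adjusted p = 7.0e-07). HERC6, a ubiquitin ligase of the family that attaches ISG15, fell by 1.83 ± 0.13, the antiviral factor SAMD9L by 1.65 ± 0.10, IFITM3, which holds viruses in endosomes, by 1.08 ± 0.11, and DTX3L by 1.0 ± 0.10. IFIT1, an RNA cap sensor, fell by 2.13 ± 0.15 and ended dim. SAMHD1, which depletes nucleotides, rose by 0.39 ± 0.088. The IFITM genes are close copies, so their probes may share signal.

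The interferon response core, the letters GAAANNGAA, was in most promoters of the antiviral effectors. A window from 250 bases before to 50 after the gene start was found in RefSeq (GRCh38.p14) for 10749 of the genes tested. On either strand the core was in 6.55% of all windows, in 7.90% of those of genes that fell, in 4.66% of those that rose and in 6.55% of those not called. It was in 17 of 24 windows of antiviral effectors (70.8%) and in 13 of 17 of those that fell (76.5%). A match describes the letters and is no measured site. Stretches upstream of the start are shown for some genes that fell, picked because they hold the core. The core (or its reverse complement) is in capitals.
IFIT1, chr10:89392493-89392531, plus strand: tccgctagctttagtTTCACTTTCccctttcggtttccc
IFIT3, chr10:89327861-89327899, plus strand: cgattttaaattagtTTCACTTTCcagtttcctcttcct
IFI44L, chr1:78620360-78620398, plus strand: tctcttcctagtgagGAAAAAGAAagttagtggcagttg
IFITM3, chr11:320889-320927, minus strand: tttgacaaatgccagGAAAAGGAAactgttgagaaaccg
BST2, chr19:17405737-17405775, minus strand: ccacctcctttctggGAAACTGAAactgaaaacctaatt
SAMD9, chr7:93118092-93118130, minus strand: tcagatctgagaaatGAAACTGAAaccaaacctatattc
The core is also in windows of ISG15, ISG20, HERC5 and TRIM5, which were not called. ISG15, whose product is the ubiquitin-like tag (0.22 ± 0.11), is shown for comparison.
ISG15, chr1:1013369-1013407, plus strand: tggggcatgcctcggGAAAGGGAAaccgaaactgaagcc
BST2, which tethers budding virus, fell by 0.57 ± 0.10 and SAMD9 by 0.43 ± 0.13, so genes with the same core covered falls from these to that of IFI44L.

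Of 13 measured sensors of RNA and DNA, which feed the interferon response, 8 fell, 1 rose and 4 were not called (median -0.49). TLR3 read 8.01, 8.15 and 8.04 under vehicle and 5.59, 5.59 and 4.92 under JQ1, so that it fell by 2.70 ± 0.17. The DNA adaptor STING1 fell by 0.75 ± 0.092, the RNA helicase IFIH1 (MDA5) by 0.82 ± 0.14, the RNA-activated kinase EIF2AK2 (PKR) by 0.66 ± 0.095 and the DNA sensor CGAS by 0.49 ± 0.14. Of 9 receptors, JAKs and STATs, 2 fell, among them the interferon gamma receptor chain IFNGR2 by 0.61 ± 0.13, and 1 rose. Of 13 interferon regulatory factors and feedback genes 3 fell and 2 rose. IRF9, the DNA-binding subunit of the complex that reads the core above, read 8.37, 8.39 and 8.50 and then 7.58, 7.49 and 7.55, a fall of 0.88 ± 0.091. IRF7, which amplifies interferon transcription, rose by 0.56 ± 0.097, and SOCS1 rose as given above.

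Of 11 measured complement genes 5 fell and 1 rose. CFI, the protease that inactivates C3b, read 8.93, 9.03 and 8.71 under vehicle and 5.82, 5.60 and 5.75 under JQ1, and fell by 3.17 ± 0.15. C3, the central component, fell by 2.24 ± 0.094 and CFB, a subunit of its convertase, by 1.38 ± 0.10. C4A and C4B are near-identical copies whose probes cannot be parted; C4A changed by -1.69 ± 0.081 and C4B by -1.71 ± 0.085. Of 7 genes of class I presentation 4 fell (median -0.47), the peptide-trimming ERAP2 by 0.92 ± 0.13, ERAP1 by 0.59 ± 0.099, and the loading chaperones TAPBP by 0.47 ± 0.085 and TAPBPL by 0.62 ± 0.12. Of 72 chemokine and interleukin genes 10 fell and 2 rose, so 16.7% were called against 21.7% of all genes. The mucosal chemokine CXCL17 read 10.95, 10.86 and 10.93 and then 8.79, 8.69 and 8.64, a fall of 2.21 ± 0.24. CCL5 fell by 1.15 ± 0.12, CX3CL1 by 0.74 ± 0.11, and the alarmin IL33 by 2.15 ± 0.21 to a dim level, while IL18 rose by 0.44 ± 0.079.

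**Figure D3:**
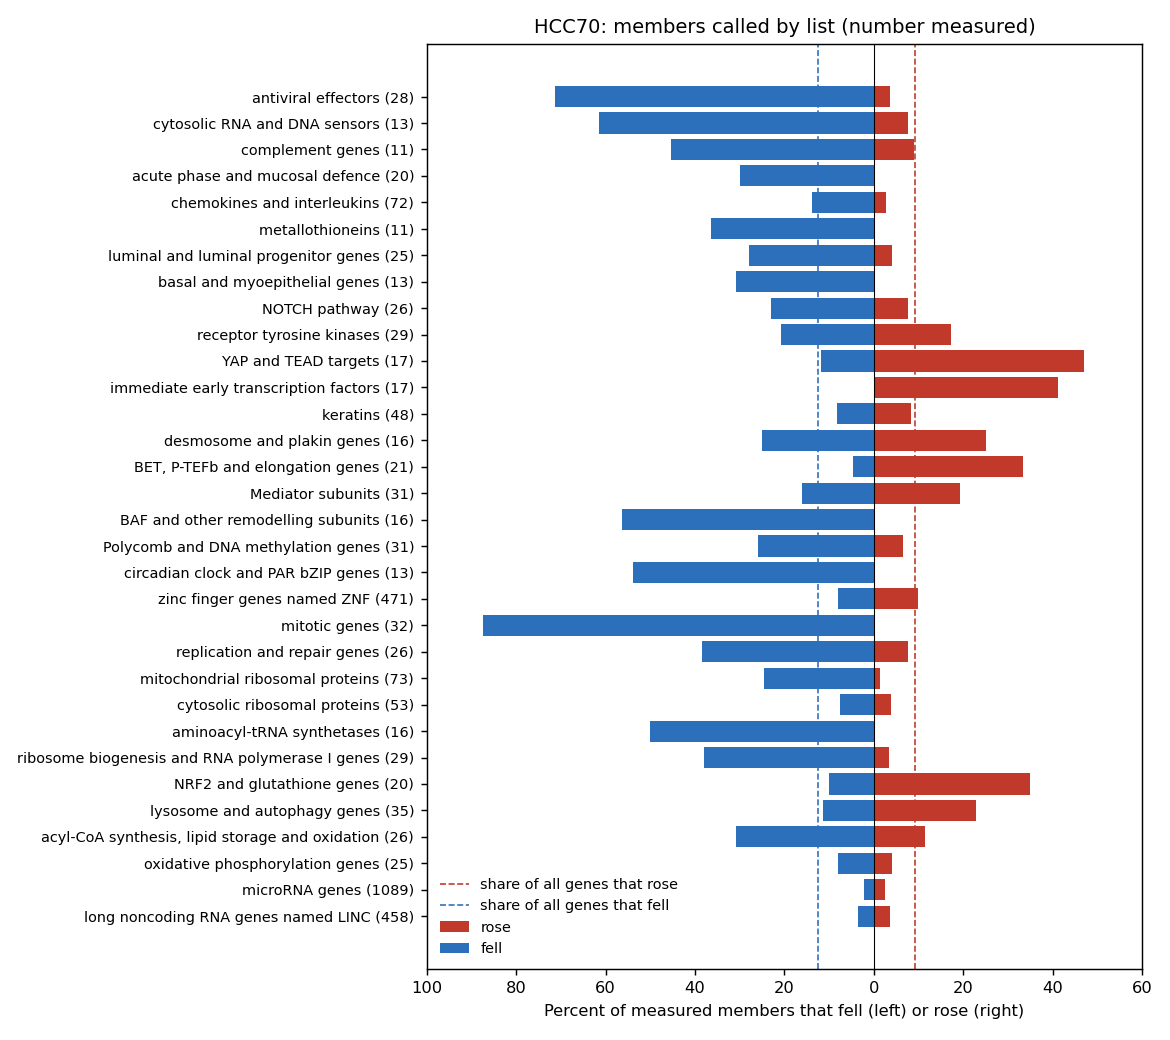
Bars give the percent of each list's measured members that fell (blue, left) or rose (red, right), with the number measured in brackets and dashed lines at 12.5% and 9.18%, the shares of all genes that fell and rose. Mitotic and antiviral genes have the longest blue bars, YAP and TEAD targets the longest red bar, and microRNA and LINC genes lie inside the dashed lines.

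Of 25 luminal and luminal progenitor genes 7 fell, 1 rose and 17 were not called (median -0.09). The share called was 32.0%, against 21.7% of all genes. Besides KIT the falls were in the secretory factor XBP1 (-1.12 ± 0.085), the epithelial ETS factor EHF and the stem cell surface protein PROM1 (-0.96 ± 0.16). GRHL3, the pioneer factor FOXA1 (-0.50 ± 0.12) and the receptor ERBB3 (-0.42 ± 0.12) also fell. EHF read 9.42, 9.38 and 9.34 and then 8.41, 8.26 and 8.20, a fall of 2.13-fold with no overlap. TFAP2C, a trophectoderm and luminal factor, rose by 0.56 ± 0.093. Of 13 basal and myoepithelial genes 4 fell, 0 rose and 9 were not called. The intermediate filament VIM read 7.12, 7.25 and 7.02 and then 5.40, 5.66 and 5.18, and fell by 1.72 ± 0.11 in its brightest cluster and by 0.65 ± 0.081 and 0.88 ± 0.20 in the other clusters. TRIM29 fell by 0.98 ± 0.12, SNAI2 (Slug), a repressor of epithelial genes, by 0.78 ± 0.076, and KRT14 by 1.03 ± 0.23.

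Of 26 measured NOTCH pathway genes 6 fell and 2 rose, so 30.8% were called against 21.7% of all genes. The receptors went both ways. The target HEY2 read 9.43, 9.62 and 9.50 under vehicle and 7.15, 7.41 and 7.14 under JQ1, a fall of 4.86-fold (-2.28 ± 0.14, limma adjusted p = 3.6e-07). NOTCH3 fell by 0.75 ± 0.18 and NOTCH2 rose by 0.31 ± 0.078, a call lost under 1 alternative. The HES family gene HES2 fell by 0.69 ± 0.12 and the coactivator MAML2 by 0.33 ± 0.090, and LFNG, which modifies the receptors, rose by 0.59 ± 0.13.

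Of 48 keratin genes 4 rose and 4 fell, both smaller shares than the 9.18% and 12.5% over all genes. The simple epithelial keratin KRT18 read 10.31, 10.43 and 10.49 and then 11.10, 11.30 and 11.37 (0.85 ± 0.091), its partner KRT8 rose by 0.45 ± 0.11 and KRT19 by 0.31 ± 0.078, while the simple keratin KRT7 was not called (0.20 ± 0.093). KRT80 rose by 0.87 ± 0.085. The stratified keratin KRT4 fell by 2.29 ± 0.24 and KRT23 fell by 1.69 ± 0.23, while the stratified keratins KRT5, KRT15 and KRT16 were not called. Of 16 desmosome and plakin genes the 4 that fell were the cadherins DSG3 (-1.64 ± 0.14), DSC2 (-0.82 ± 0.12) and DSC3 (-0.63 ± 0.15) and the plaque protein PKP1 (-0.87 ± 0.15). The 4 that rose were the cytolinkers EPPK1, PPL (0.51 ± 0.10), PLEC (0.48 ± 0.086) and MACF1. Among CEACAM and PSG genes 4 of 22 fell and 0 rose (median -0.06), so 18.2% were called against 21.7% of all genes. CEACAM1 fell by 1.06 ± 0.15.

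Genes of the YAP and TEAD list rose in 8 of 17 measured and fell in 2 (median 0.19). The list holds target genes, which rise when cells spread or lose Hippo kinase activity. It also holds the factors themselves, of which TEAD1 rose and YAP1, WWTR1 and TEAD4 were not called. CRIM1, a membrane-bound growth factor regulator, read 9.49, 9.29 and 9.38 and then 10.48, 10.54 and 10.46, a rise of 1.10 ± 0.079. The exchange factor DOCK5 rose by 0.93 ± 0.079, the angiomotins AMOTL1 and AMOTL2 by 0.71 ± 0.076 and 0.60 ± 0.10, and TEAD1 itself by 0.53 ± 0.082. IGFBP3, which binds insulin-like growth factors, fell by 1.80 ± 0.18. The promoter of CCN2 holds the TEAD core, GGAATG on either strand, at several places, and a window with 2 of them is shown with 1 in capitals.
CCN2, chr6:131951456-131951491, minus strand: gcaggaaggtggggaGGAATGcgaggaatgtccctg
This core was in 11.7% of all promoter windows, in 11.1% of those of genes that rose and in 4 of 12 windows of the list.

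Other growth signalling genes moved in both directions. Of 17 immediate early transcription factors 7 rose and 0 fell (median 0.29), ATF3 by 0.94 ± 0.13 and JUN by 0.71 ± 0.084. Of 29 receptor tyrosine kinases 6 fell and 5 rose, so 37.9% were called against 21.7% of all genes. EPHB6 fell by 0.94 ± 0.14 and EPHB4 by 0.71 ± 0.10, while EPHA2 rose by 0.95 ± 0.088 and MET, the hepatocyte growth factor receptor, by 0.74 ± 0.083. Among 9 EGF family ligands HBEGF rose by 0.99 ± 0.10 and EGF fell by 0.94 ± 0.10. Of 17 TGF-beta and BMP genes 5 fell and 1 rose. The falls included LTBP3, which stores the latent ligand, by 0.90 ± 0.091, and the inhibitors SMAD7 and SKIL by 0.78 ± 0.12 and 0.77 ± 0.10. The single rise was in SKI, a relative of SKIL that also inhibits the pathway, by 0.75 ± 0.098. The 5 falls became 3 without JQ1 replicate 3.

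Of 21 BET, P-TEFb and elongation genes 7 rose, 1 fell and 13 were not called (median 0.19). Beyond BRD2 and HEXIM1, the histone chaperone SUPT6H read 9.37, 9.34 and 9.38 and then 10.06, 10.06 and 10.01 (0.68 ± 0.071), CCNT1, the cyclin of P-TEFb, rose by 0.36 ± 0.083, and MEPCE, which caps the inhibitory 7SK RNA, by 0.38 ± 0.095. Mediator subunits went both ways, 6 of 31 up and 5 down, and the 6 rises became 3 without JQ1 replicate 1. MED12, part of the kinase module, read 9.24, 9.25 and 9.23 and then 7.89, 7.91 and 7.85, a fall of 1.35 ± 0.11 (limma adjusted p = 2.0e-06), and MED24 of the tail fell by 1.02 ± 0.081. MED19 rose by 0.66 ± 0.10.

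Of 16 BAF and other remodelling subunits 9 fell, 0 rose and 7 were not called (median -0.30). CHD3, a NuRD ATPase, read 9.69, 9.79 and 9.82 and then 8.70, 8.67 and 8.50, a fall of 1.15 ± 0.098. ARID1A fell by 0.47 ± 0.093 and ARID1B by 0.39 ± 0.077. Of 34 acetyltransferases, deacetylases and sirtuins 11 fell and 6 rose, and the rises became 3 without any of 4 arrays (JQ1 replicates 1 and 2, vehicle replicates 1 and 3). The acetyltransferases KAT2A (GCN5, -1.11 ± 0.10) and CREBBP (-0.58 ± 0.079) fell, while KAT2B, the close relative of KAT2A, rose by 0.60 ± 0.11. The deacetylase SIRT1 read 7.45, 7.42 and 7.55 and then 8.67, 8.61 and 8.36, a rise of 1.07 ± 0.10. Of 31 Polycomb and DNA methylation genes 8 fell and 2 rose. The falls included the PRC2 partner PHF19 by 0.98 ± 0.11, the demethylating enzyme TET1 by 0.92 ± 0.17 and the methyltransferase DNMT3A by 0.71 ± 0.11.

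Of 13 circadian clock and PAR bZIP genes 7 fell, 0 rose and 6 were not called (median -0.54). The activators NPAS2 (-1.06 ± 0.086), BMAL1 (-0.76 ± 0.12) and CLOCK (-0.68 ± 0.080) fell, and so did the repressors PER3 (-1.04 ± 0.11) and PER2 (-0.54 ± 0.092) and the output factors DBP (-0.95 ± 0.12) and HLF (-0.82 ± 0.12). NPAS2 read 8.02, 8.09 and 7.98 and then 6.89, 7.02 and 7.0. Zinc finger genes named ZNF, most of them repressors guided by sequence, showed no common direction, with 46 of 471 up and 38 down. Their share called was 17.8%, against 21.7% of all genes. Without vehicle replicate 1 the 46 rises became 30. ZNF358 fell by 1.93 ± 0.12 and ZNF532 by 1.60 ± 0.078, and ZNF124 rose by 0.85 ± 0.12.

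Falls outnumbered rises in lists of growth and division. Of 32 mitotic genes 28 fell and 0 rose (median -0.50), from PBK (-1.35 ± 0.17) to NUSAP1 (-0.24 ± 0.073). Of 26 replication and repair genes 10 fell and 2 rose, and the 10 became 5 without JQ1 replicate 3 or vehicle replicate 3. Mitochondrial ribosomal proteins, which translate the mitochondrial genome, had 18 of 73 falls and 1 rise (median -0.14), among them MRPL15 (-0.89 ± 0.15), MRPS15 (-0.82 ± 0.093) and MRPL3, which read 10.24, 10.29 and 10.21 and then 9.43, 9.43 and 9.25. Cytosolic ribosomal proteins had 4 of 53 falls and 2 rises, both below the shares over all genes. The 4 falls became 1 without any of 4 arrays (JQ1 replicates 2 and 3, vehicle replicates 2 and 3). Of 16 aminoacyl-tRNA synthetases, which charge tRNAs, 8 fell and 0 rose, LARS1 by 0.86 ± 0.090 and IARS1 by 0.60 ± 0.078, and the 8 became 5 without JQ1 replicate 3. Of 29 ribosome biogenesis and RNA polymerase I genes 11 fell, among them the rRNA methyltransferase FBL by 0.61 ± 0.085, and 1 rose.

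Stress and redox genes were divided. Of 20 NRF2 and glutathione genes 7 rose and 2 fell. Thioredoxin reductase TXNRD1 read 8.01, 8.07 and 8.07 and then 9.20, 9.10 and 9.19, a rise of 1.11 ± 0.074, and GPX4, which clears lipid peroxides, rose by 0.96 ± 0.072. The glutathione transferase GSTM4 fell by 1.15 ± 0.12 and GSTM3 rose by 0.70 ± 0.091, and these are related copies. Of 11 metallothioneins, small metal-binding proteins, 4 fell and 0 rose. MT1X read 11.27, 11.32 and 11.24 and then 9.62, 9.56 and 9.65, a fall of 3.18-fold, but the MT1 genes are near-identical and their probes may share signal. Of 16 unfolded protein and amino acid stress genes 7 fell and 2 rose. The serine synthesis enzymes PSAT1 and PHGDH fell by 1.15 ± 0.10 and 0.87 ± 0.11. Of 17 heat shock chaperones 4 rose, among them HSPA4L by 0.97 ± 0.12 and HSPB1 by 0.49 ± 0.071, and 1 fell.

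Lipid and lysosome genes held large changes in both directions. Of 26 genes of acyl-CoA synthesis, lipid storage and oxidation 8 fell and 3 rose. ACSL5, which activates long-chain fatty acids, read 9.23, 9.21 and 9.13 and then 6.27, 5.90 and 5.91. DGAT1, which completes triglyceride synthesis, read 8.13, 8.27 and 8.24 and then 9.34, 9.47 and 9.38 (1.18 ± 0.081), whereas DGAT2, an unrelated enzyme for the same step, fell by 0.54 ± 0.13 and the droplet coat protein PLIN2 by 0.48 ± 0.086. The phosphatase LPIN2 rose by 0.83 ± 0.094. Of 35 lysosome and autophagy genes 8 rose and 4 fell, so 34.3% were called against 21.7% of all genes. The autophagosome proteins MAP1LC3B and GABARAPL1 rose by 1.13 ± 0.17 and 0.74 ± 0.11, ATG2A by 0.78 ± 0.087 and the sialidase NEU1 by 0.92 ± 0.087. MAP1LC3B read 5.76, 5.61 and 5.01 under vehicle and 6.77, 6.43 and 6.56 under JQ1. Among 15 cathepsins CTSV rose by 1.13 ± 0.098 and CTSO fell by 1.18 ± 0.18. Of 19 BCL2 family genes 4 rose and 0 fell (median -0.03), so 21.1% were called against 21.7% of all genes. The largest of these rises was in the mitophagy receptor BNIP3, at 1.29 ± 0.092. Of 25 oxidative phosphorylation genes 1 rose and 2 fell, below the shares over all genes.

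Noncoding genes had low signals, with median vehicle levels of 4.34 for microRNA, 4.53 for LINC and 4.96 for antisense genes, and smaller shares were called than over all genes. Of 1089 microRNA genes 26 rose and 23 fell (4.50%), of 458 LINC genes 17 and 16, of 480 antisense transcripts 25 and 26, and of 11 small nucleolar RNA genes and their hosts 0 and 0 (median -0.20). The 17 LINC rises became 7 without vehicle replicate 1 and 9 without vehicle replicate 3. The array reads the gene or precursor, not the mature microRNA, and may also read a longer transcript that spans the gene. Which of these gave the signal was not tested. MIR612 read 7.66, 7.56 and 7.62 and then 9.40, 9.41 and 9.19, a rise of 3.30-fold (1.72 ± 0.094), and MIR3143 rose by 1.58 ± 0.14. MIR4521 read 6.65, 6.62 and 6.33 and then 8.40, 8.14 and 8.11, a rise of 1.68 ± 0.11. MIR554 read 6.21, 6.37 and 6.40 and then 8.09, 8.01 and 7.72, a rise of 1.61 ± 0.12. MIR622 rose by 1.03 ± 0.10 and MIRLET7A3 by 0.93 ± 0.13, and MIR205, an epithelial microRNA gene, fell by 0.85 ± 0.16. Mature products of these genes (RefSeq, GRCh38.p14) are shown with the seed, bases 2 to 8, in capitals, because the seed decides which messages such a product pairs with.
hsa-miR-4521: gCUAAGGAaguccugugcucag
hsa-miR-554: gCUAGUCCugacucagccagu
hsa-miR-622: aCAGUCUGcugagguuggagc
hsa-let-7a-5p: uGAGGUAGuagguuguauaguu
hsa-miR-205-5p: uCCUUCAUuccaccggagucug
No seed is shared among these. Among all 56 mature sequences matched to 38 of the 49 called microRNA genes there were 56 distinct seeds. Of the antisense transcripts, ATP2B1-AS1 rose by 1.23 ± 0.14 and CBR3-AS1 by 1.06 ± 0.099.

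Neighbouring genes were sometimes called together. In the gene order of RefSeq (GRCh38.p14), 14881 measured genes had a position. Among them 9 runs of 4 or more neighbours were all called in the same direction. Of these runs 7 went downward with 32 genes and 2 upward with 9 genes. Over all genes 12.5% fell and 9.18% rose. How many runs these shares alone would give was not worked out. The count thus does not show that neighbours respond together. The longest run held 7 protocadherin beta genes and pseudogenes, PCDHB11 to PCDHB15, which code for neuronal adhesion proteins and are close copies. Their changes ran from -0.45 ± 0.14 for PCDHB11 to -1.31 ± 0.12 for PCDHB15, which ended dim. In the run of INAVA, KIF21B, TMEM9, PKP1 and LAD1, LAD1, an anchoring filament protein, fell by 1.01 ± 0.19. In that of NAALADL2, NAALADL2-AS3, MIR4789 and TBL1XR1, the corepressor subunit TBL1XR1 fell by 1.02 ± 0.083 and NAALADL2 by 1.18 ± 0.17, and both genes between them were dim throughout. GRAMD1C, a cholesterol transfer protein, fell by 1.30 ± 0.087 beside CCDC191 (-1.40 ± 0.21), USF3 and QTRT2.

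In the remaining downward runs, FTO, an RNA demethylase, and IRX3, a homeobox factor, fell by 0.38 ± 0.078 and 0.69 ± 0.077 together with RPGRIP1L and CRNDE. TPD52L1 fell by 0.91 ± 0.17 beside RNF217-AS1, RNF217 and HDDC2, and ZNF689 by 0.82 ± 0.20 beside ZNF688, ZNF785 and PRR14. In the upward runs C2CD4B, a nuclear protein induced by inflammation in vessels, rose by 1.39 ± 0.11 beside C2CD4A, VPS13C and TLN2, and the zinc finger genes ZNF701, ZNF83, ZNF611, ZNF600 and ZNF320 rose by 0.43 to 0.79. These zinc finger genes are related copies. The calls of 11 genes in the runs were lost under at least 1 alternative: INAVA, ZNF688, ZNF785, PRR14, RPGRIP1L, ZNF600, ZNF320, MIR4789, PCDHB11, PCDHB12 and RNF217.

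**Figure D4:**
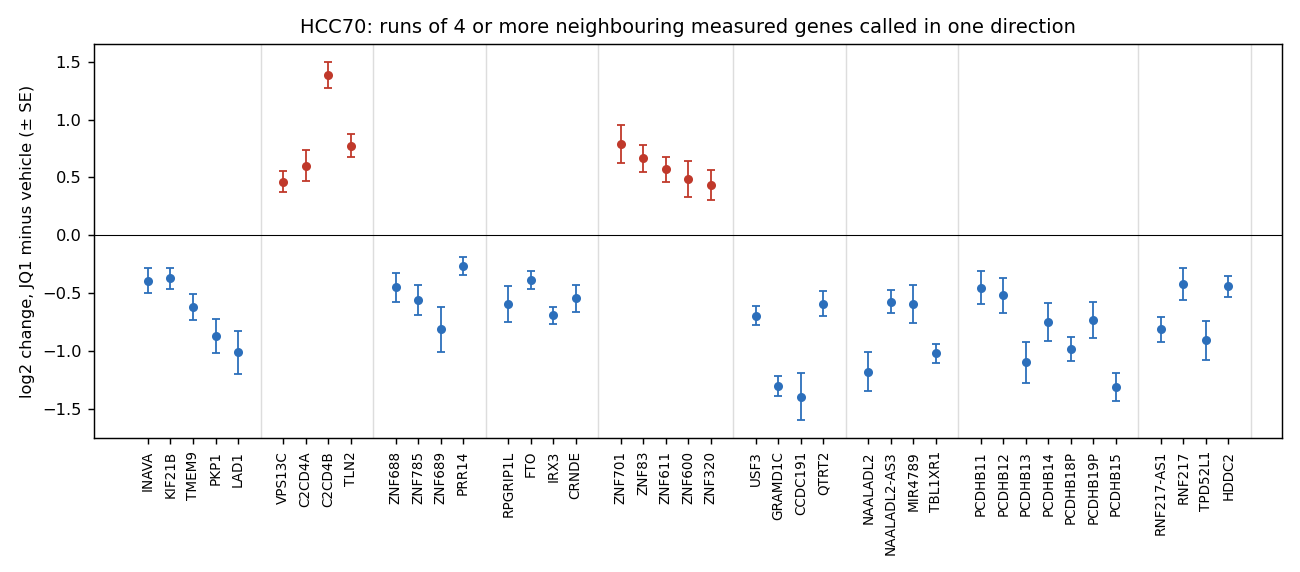
Points are the log2 changes (JQ1 minus vehicle) with their SE for the 41 genes in 9 runs of neighbouring measured genes called in the same direction, in gene order, with grey lines between runs. Within a run the sizes differ, for example from 0.46 for VPS13C to 1.39 for C2CD4B.

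Set against MDA-MB-231, 1634 of the 3229 called genes were called in the same direction there, 168 in the other direction, and 1427 were not called there. The difference of the JQ1 effects, tested as an interaction in the same fit, was called for 2228 genes, 15% of those tested, and for 1175 of the 3229. Of those 1175 genes 151 lay under the lower quartile of vehicle levels in MDA-MB-231 (4.78), and 135 of the 151 fell in HCC70, so that a fall in MDA-MB-231 had little room to be read. All 168 genes with opposite calls were among the 1175. Of them 89 rose in HCC70 and fell in MDA-MB-231, and 79 did the reverse.

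Genes that fell in HCC70 and rose in MDA-MB-231 with the largest differences included surface and secreted proteins. The sushi domain protein SUSD2 read 9.46, 9.70 and 9.71 and then 8.04, 8.37 and 8.41, a fall of 1.35 ± 0.12, against a rise of 1.75 ± 0.12 in MDA-MB-231 (difference -3.10 ± 0.17, limma adjusted p = 5.0e-07). SUSD4, a complement inhibitor, fell by 1.30 ± 0.10 and differed by -1.87 ± 0.15. DBP fell as given above and rose by 1.02 ± 0.12 in MDA-MB-231. ALDH2, which oxidises acetaldehyde, read 7.88, 7.92 and 7.98 and then 6.34, 6.63 and 6.31, against a rise of 0.45 ± 0.12. The lipid receptor S1PR1 fell by 1.24 ± 0.17 to a dim level. CP, ERP27 and FYB1 were the others, but in MDA-MB-231 they were dim, with vehicle means of 4.16, 4.46 and 4.17, and CP passed there with a limma adjusted p of 0.049. Their rises in MDA-MB-231 were thus read near the low end of the signal, as were those of 10 of the 79 genes in all.

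In the reverse direction CD274 (PD-L1), the ligand that restrains T cells, read 6.11, 6.23 and 6.29 and then 6.88, 6.65 and 6.56 in HCC70, a rise of 0.49 ± 0.11, and fell by 1.93 ± 0.11 in MDA-MB-231 (difference 2.42 ± 0.15, limma adjusted p = 1.2e-06). INSIG1, which retains the sterol sensor in the endoplasmic reticulum, rose by 0.60 ± 0.086 and fell by 1.42 ± 0.086 there. FBXO32, a ubiquitin ligase subunit known from muscle wasting, stood at 7.95 on each JQ1 array against 6.70, 6.84 and 7.04, and differed by 1.94 ± 0.14. The matrix proteins THBS1 and EFEMP1 rose by 0.88 ± 0.077 and 0.31 ± 0.072 and fell by 0.72 and 1.53 in MDA-MB-231. MIR3143, PM20D2 and the dim CROT made up the rest.

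Gene lists varied in how many members had the difference called, against 15% of all genes tested. Small lists with few or no called differences need not depart from that share. It was called for 32 of 32 mitotic genes, whose median was -0.50 in HCC70 and -2.04 in MDA-MB-231. The difference was also called for 11 of 16 aminoacyl-tRNA synthetases (-0.24 and -0.93) and 12 of 28 antiviral effectors (-0.79 and -0.42). In the YAP and TEAD list it was called for 10 of 17 genes (0.19 and 0.031). It was called for 1 of 21 BET, P-TEFb and elongation genes (0.19 and 0.071), for 0 of 7 class I presentation genes and for 3 of 73 mitochondrial ribosomal proteins. A difference that missed the threshold does not show that the lines responded alike.

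**Figure D5:**
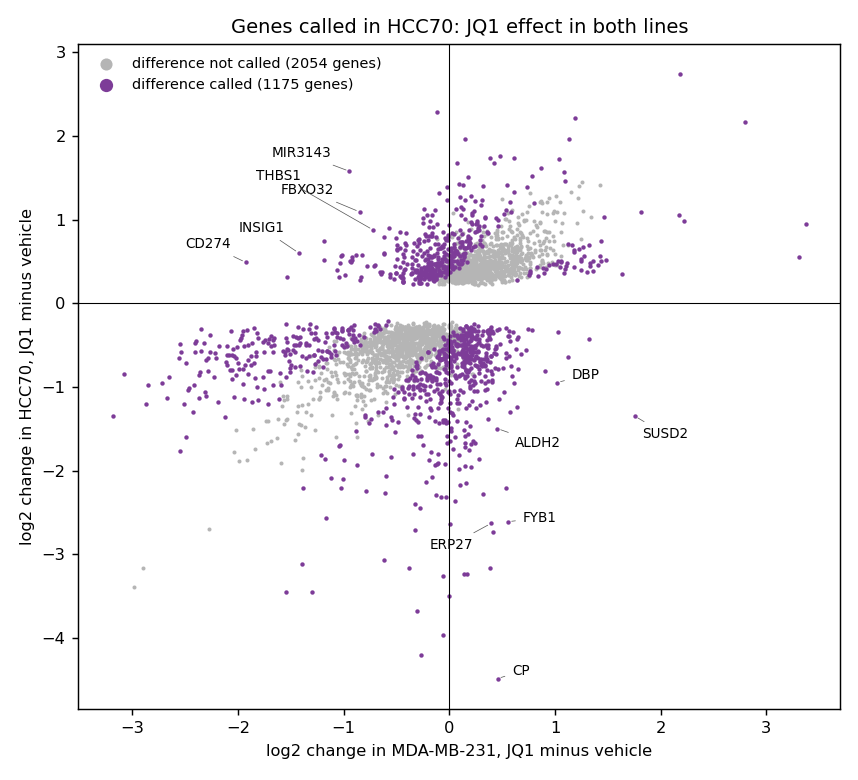
Each point is one of the 3229 genes called in HCC70, with its log2 change in MDA-MB-231 on the x axis and in HCC70 on the y axis, purple where the difference of the effects was called (1175 genes) and grey where it was not (2054 genes). The large falls of CP, FYB1 and ERP27 in HCC70 lie right of 0 on the x axis, where these genes were dim in MDA-MB-231, and CD274, INSIG1 and MIR3143 lie in the upper left quadrant.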

How the data were processed

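RNA from 12 samples was hybridised to Human Gene 2.0 ST arrays. The authors deposited one log2 signal per transcript cluster and array. The submitters' processing notes name RMA, oligo and limma but no versions. For the array annotation no genome build is given in the sources used here. RefSeq (GRCh38.p14) served only for gene names, gene order and printed sequences. Of 53617 clusters 16098 had a single symbol, 0 several and 37519 none, and 779 genes had several clusters. Keeping the cluster with the highest mean gave 14884 genes. Neither SERPINI1 nor CDKN1A was analysed here.

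The model (limma 3.58.1, run under R 4.3.3 with lmFit and eBayes) had a mean for each of 4 groups over the 12 arrays, and contrasts for JQ1 in each line and for their difference. Tests were two-sided. Benjamini-Hochberg adjustment ran over all genes, and genes under 0.05 were called. SE is that of the limma coefficient, and SD that of 3 arrays. No filter on dim genes was applied. The number of arrays limits the precision. The procedure was tested on simulated data.

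Named genes were the 25 largest rises and falls among called genes with groups that did not overlap, up to 4 members with the smallest p per direction of a described list plus members needed to say what a list holds, genes in neighbouring runs, the 8 largest differences each way among genes called with opposite signs, and markers. The members and lists were chosen with earlier results of these data known, and lists were given no set test. Alternatives were a replicate block, the HCC70 arrays alone, a variance trend, a filter at the median level, averaged clusters, quantile normalization, centring, array weights and leaving out each array.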

Additional observations from a re-analysis of the deposited data

Results flagged for a closer look

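The interaction test called the difference of the JQ1 effects for 56 of the genes named by size or by opposite calls, and each value that follows is the log2 change in HCC70 minus that in MDA-MB-231. These genes were chosen for large changes in HCC70 or for opposite calls, so the share with a called difference says nothing about other genes.

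Among the leading rises the differences were AMIGO3 (2.41), PCSK5 (1.82), ZNF10 (1.29), CCN2 (1.13), IQCN (1.03), EPPK1 (0.83) and TFPI2 (0.56), while PEG10, which rose in both lines, had a difference of -0.63. Among the rises that followed they were MIR4521 (1.60), VTRNA1-1 (1.35), TMEM45B (1.33), GCH1 (1.33), SOCS1 (1.29), CEMIP2 (1.25), UXS1 (1.09), WDR47 (0.87), MIR554 (0.75), ZNF280C (0.74), MIR612 (0.69), CLIC3 (0.49) and TUFT1 (0.36). For LOC90246, DCXR and PNPLA2 the difference was not called (limma adjusted p = 0.51, 0.99 and 0.34). The genes that rose in HCC70 and fell in MDA-MB-231 had differences of 2.52 (MIR3143), 2.42 (CD274), 2.03 (INSIG1), 1.94 (FBXO32), 1.92 (CROT), 1.85 (EFEMP1), 1.71 (PM20D2) and 1.60 (THBS1).

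Among the leading falls the values were IFI44L (-3.93), GLYATL2 (-3.91), CEACAM6 (-3.49), CD180 (-3.37), CTSS (-2.16) and IFITM1 (-1.90). Among the falls that followed they were ATP13A5 (-3.55), KIT (-3.40), RARRES1 (-3.37), GSDMC (-3.19), MXRA5 (-3.14), CFI (-2.79), A2ML1 (-2.65), TNC (-2.45), GBP4 (-2.39), TGM5 (-2.17), TLR1 (-2.08), FN1 (-1.72) and IFIT3 (-1.40), and DMBT1, ACSL5 and TLR3 fell in both lines with no called difference (limma adjusted p = 0.20, 0.31 and 0.28). The genes that fell in HCC70 and rose in MDA-MB-231 had differences of -4.94 (CP), -3.17 (FYB1), -3.10 (SUSD2), -3.02 (ERP27), -1.97 (DBP), -1.95 (ALDH2), -1.88 (S1PR1) and -1.87 (SUSD4). IFI44L, CD180, ATP13A5, GBP4, IFIT3, TGM5, TLR1 and S1PR1 ended dim under JQ1 in HCC70, so the size of the fall is limited by the low end of the signal.

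Many of these genes were dim in MDA-MB-231, where vehicle means under 4.78 lay below the lower quartile. Vehicle means there were 3.61 for IFI44L, 3.32 for GLYATL2, 3.93 for CEACAM6, 4.50 for CD180, 4.12 for GSDMC, 4.17 for RARRES1, 4.71 for KIT, 4.31 for A2ML1, 4.09 for ATP13A5, 4.64 for MXRA5, 3.84 for TGM5 and 4.52 for TLR1. A fall of these genes had little room to be read in MDA-MB-231, so their differences do not show that the lines respond unlike. CP, FYB1 and ERP27 were dim there too (4.16, 4.17 and 4.46), which also limits how far their rises can be read, and CP rose there with a limma adjusted p of 0.049. PCSK5 and EPPK1 had vehicle means of 4.66 and 4.71 there, and CTSS, CFI and GBP4 ended dim under JQ1.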

How the results depend on the processing

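The 3229 genes called for JQ1 in HCC70 were 3236 with the replicate number as a block, 3206 to 3700 under the other alternatives apart from array weights, and 2506 to 2877 without any 1 HCC70 array. Array weights gave 5110, and the cause was not tested. For the difference of the effects 2228 genes became 2171 with the block and 1748 to 2376 without any 1 array. Deviations from the group means were correlated between vehicle and JQ1 arrays of the same number. In HCC70 the values were -0.0588, 0.0147 and 0.0702, against -0.1418 to 0.1353 between different numbers. In MDA-MB-231 they were 0.1552, 0.1208 and 0.362, against -0.2498 to 0.1207. So few correlations cannot decide whether the numbers pair the samples. Falls made up 43.9% of calls after centring and 50.4% after quantile normalization, against 57.7%. Of 65 list counts of 4 or more, 18 moved by over 1.5 times under array weights, 14 under the filter at the median level and 12 under centring. The other fits moved 0 to 3, and leaving out any 1 HCC70 array moved 6 to 10. Members that the filter removed were counted as not called, so the 14 may reflect removed members as well as changed calls. Of 410 genes that could be named, 339 kept their call under every alternative run in which they were tested, 71 lost it under at least 1 and 0 changed sign. Signal near background limits the falls of dim genes, and 3 arrays per group limit the precision of each change.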

Other observations

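Several gene groups not described above went in both directions. Of 31 cholesterol and fatty acid synthesis genes 5 rose and 5 fell: TM7SF2, a sterol reductase, rose by 1.29 ± 0.16 and IDI1, which makes isoprene units, by 0.62 ± 0.086, while the desaturases SCD5 and SCD fell by 0.72 ± 0.12 and 0.42 ± 0.079. Of 16 iron and copper handling genes 4 rose and 4 fell, and beyond CP these included HEPH, a copper oxidase related to CP, at -0.73 ± 0.12, and the copper chaperone CCS at 0.52 ± 0.10. Of 11 MYC and MAX network genes MYC (-0.92 ± 0.10) and MXI1 (-0.72 ± 0.094) fell, and the MYC antagonists MXD1 (0.65 ± 0.095) and MXD4 (0.54 ± 0.096) rose.

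Of 21 S100 genes 1 rose and 0 fell, and of 15 kallikreins 1 rose and 0 fell. These are 4.76% and 6.67% called, against 21.7% of all genes. Of 94 homeobox, SOX and T-box genes 3 rose and 8 fell, so 11.7% were called against 21.7% of all genes. The 8 falls became 4 without vehicle replicate 1 or 2. Among the homeobox genes, PBX2 fell by 0.83 ± 0.096 and MEIS2, its partner in binding DNA, by 0.68 ± 0.11.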
